A study of Mus musculus with 12 samples.

Results

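The IKK and TAK1 kinase complexes were followed through 9 genes, taken by symbol from the gene count table: Ikbkb (IKKβ, also called IKK2), Chuk (IKKα), Ikbkg (NEMO), Ikbke (IKKε), Tbk1, Map3k7 (TAK1), Tab1, Tab2 and Tab3. They were 9 of 38215 genes in the table, and all 9 were among the 14983 genes kept after lowly counted genes were removed. RAW264.7, a macrophage line of BALB/c origin, had been nucleofected with a nontargeting control siRNA or with an siRNA against SF3a1, a subunit of the SF3a splicing complex, and 24 h later was left untreated or given 20 ng/ml LPS for 4 h. Each of the 4 groups (control siRNA, control siRNA with LPS, SF3a1 siRNA, SF3a1 siRNA with LPS) had 3 libraries of polyA RNA, with 12746019 to 41091887 reads assigned to genes per library. Counts of exon bins, the stretches into which overlapping annotated exons are divided, were used for 11 of the 12 libraries, because bin counts of replicate 3 of control siRNA with LPS were not analysed here. All groups are 1 cell line, and by the study's methods the treatments and exposures were repeated, so the p-values measure the spread between repeat treatments of 1 line. In such bulk RNA, fewer cells with a transcript and less of it per cell cannot be told apart.

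The labels were checked against marker genes. All 10 macrophage markers passed the filter, with a summed level of 10422 to 17345 CPM (read counts scaled to a common library size, here by the trimmed mean of M-values, TMM) and with Lyz2 as the most abundant, whereas no marker of T cells (0 of 5), B cells (0 of 4), fibroblasts (0 of 4) or epithelium (0 of 4) passed it, and the highest of these in any library was Pax5 at 0.710 CPM. Sf3a1 itself was at 173, 216 and 185 CPM in the control siRNA libraries and at 27.1, 27.5 and 32.1 CPM in the SF3a1 siRNA libraries. With LPS it was at 150.0, 194 and 157 CPM and at 30.3, 26.7 and 45.0 CPM, so that the knockdown groups did not overlap with their controls (6.62-fold and 4.91-fold lower). Il6, a cytokine gene induced by LPS, had 0 counts in the 6 libraries without LPS and was at 24.6, 10.97 and 27.4 CPM in control siRNA with LPS, an increase of at least 682-fold if the group without LPS is set to the limit of 3 counts in all. In SF3a1 siRNA with LPS, Il6 was at 1.27, 1.33 and 2.17 CPM, all below the control siRNA libraries with LPS. Tnf, another LPS target, was at 671, 1873 and 1804 CPM in control siRNA with LPS and at 424, 1391 and 898 CPM in SF3a1 siRNA with LPS, where the groups overlapped.

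Toll-like receptor 4 (TLR4) recognizes LPS and, through adaptors, IRAK kinases and ubiquitin ligases, builds ubiquitin chains that recruit both complexes. TAK1, held on those chains by TAB2 or TAB3 and activated through TAB1, phosphorylates IKKβ, and the IKKα-IKKβ-NEMO complex then phosphorylates IκB proteins, which releases NF-κB and opens cytokine transcription in macrophages. The related kinases IKKε and TBK1 act on a parallel arm, in which they phosphorylate IRF3 and IRF7 and so switch on type I interferon genes.

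With control siRNA, LPS changed 5 of the 9 genes at an adjusted p of at most 0.1 (edgeR quasi-likelihood test, Benjamini-Hochberg over all genes tested), 4 upward and 1 downward, where 32.1% of all genes tested were called. Of those called genes 42.9% were higher, and 27.6% with library totals in place of TMM, where 6 of the 9 were called, 3 upward and 3 downward. SF3a1 siRNA changed 4 of 9 without LPS (2 up, 2 down, with 33.8% of all genes called) and 5 of 9 with LPS (2 up, 3 down, with 38.8% of all genes called). LPS in the SF3a1 siRNA cells changed 2 of 9, both upward, where 10.7% of all genes were called (61.9% of them higher, and 40.1% with library totals). Groups did not overlap for 7, 6, 5 and 3 of the 9 genes in these 4 comparisons, against 40.2%, 45.6%, 39.1% and 24.8% of all genes. The median log2 fold change over the 9 genes was 0.21, −0.07, 0.14 and −0.08, and over all genes −0.02, −0.02, −0.04 and 0.01. The difference between the SF3a1 siRNA effects with and without LPS (the interaction) passed the test for 0 of 9 genes in edgeR, where 3.47% of all genes were called, with 2 of the 9 at an unadjusted p under 0.05. DESeq2 called 2 of the 9, where it called 6.45% of all genes. With the replicate number as a block, edgeR called 2 of the 9, Ikbke and Tbk1, where it called 11.7% of all genes. The comparisons share libraries in pairs, and their values are given side by side.

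**Figure D1:**
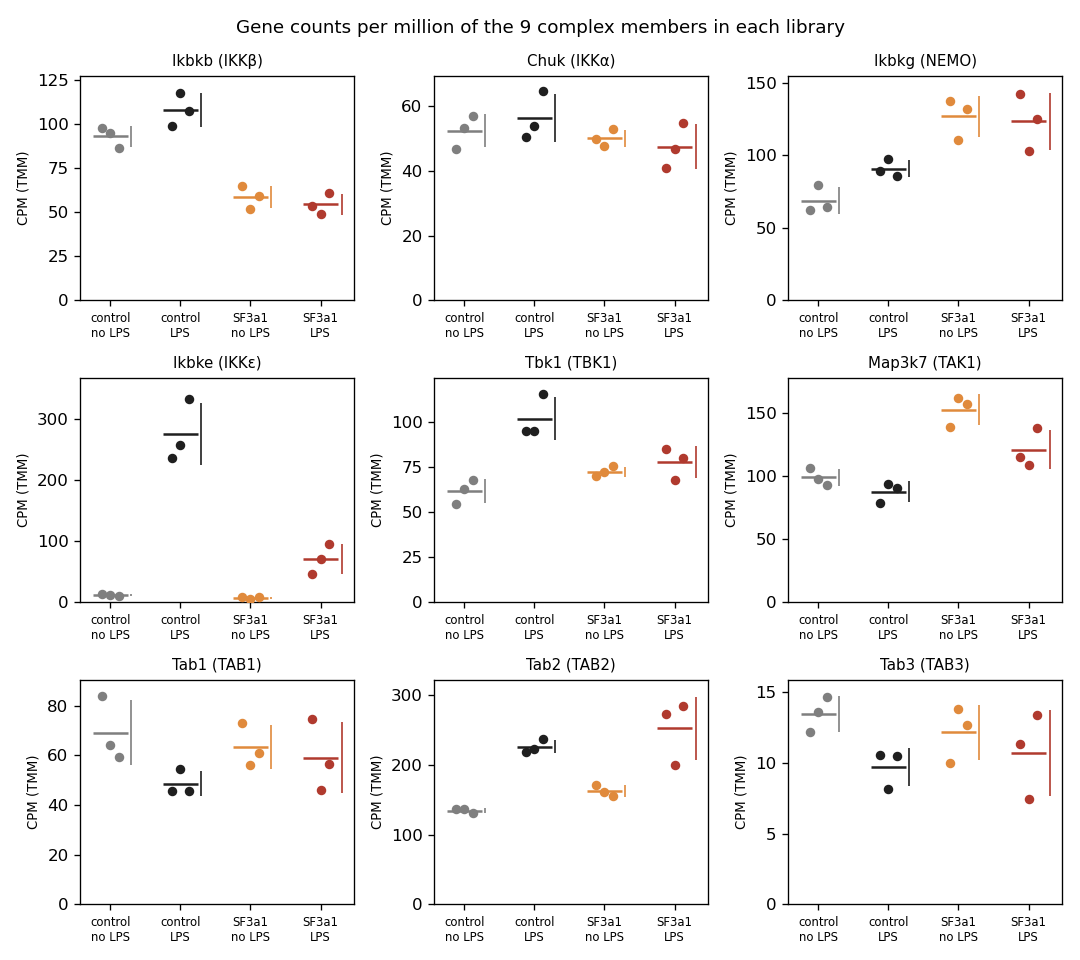
Gene level of the 9 genes in each library, in TMM-scaled CPM on a linear axis from 0. Points are libraries, horizontal lines are group means and vertical lines are ± 1 SD (n = 3); Ikbke rises with LPS from under 15 CPM to over 230 CPM in control siRNA cells and to no more than 95.7 CPM in SF3a1 siRNA cells, and Ikbkb lies lower in every SF3a1 siRNA library than in every control library.

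Ikbkb encodes IKKβ, the kinase of the complex that does most of the IκB phosphorylation below TLR4. It lies at chr8:22659212-22706589 on the minus strand (mm10, GENCODE release M21), with 22 exons in its reference coding transcript. The data turned on 3 of its introns, for which the exon-intron junctions are shown because the bins of interest begin there. Exon bases are in capitals and intron bases in lower case, 5′ to 3′.
Ikbkb exon 15-intron 15, chr8:22668654-22668695: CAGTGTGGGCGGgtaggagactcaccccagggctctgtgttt
Ikbkb exon 5-intron 5, chr8:22691028-22691069: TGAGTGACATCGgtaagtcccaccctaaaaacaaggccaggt
Ikbkb exon 21-intron 21, chr8:22661372-22661413: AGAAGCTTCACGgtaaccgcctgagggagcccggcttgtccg

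Ikbkb RNA was at 97.9, 94.9 and 86.3 CPM with control siRNA and at 64.6, 51.9 and 59.4 CPM with SF3a1 siRNA. With LPS the values were 98.7, 118 and 108 CPM with control siRNA and 53.6, 49.0 and 60.6 CPM with SF3a1 siRNA. Every SF3a1 siRNA library was below every control library, with or without LPS. The level fell 1.59-fold without LPS (log2 fold change −0.67 ± 0.14 SE, adjusted p = 0.00344) and 1.98-fold with LPS (−0.99 ± 0.14, adjusted p = 0.000246), both in edgeR. LPS itself did not change Ikbkb past the threshold (0.21 ± 0.14 with control siRNA, adjusted p = 0.303; −0.11 ± 0.14 with SF3a1 siRNA, adjusted p = 0.789), although its libraries with control siRNA and LPS were all above those without. Both decreases remained called without each of the 12 libraries in turn.

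While the gene fell, reads in several of its introns became a larger share of what was left. Of the 14 Ikbkb bins in introns, 10 were tested for use relative to the rest of the gene (edgeR diffSpliceDGE over 153624 bins), and 3 were higher with SF3a1 siRNA without LPS. For 1 of these, bin 34, the filter on low counts was passed only through that group, so only an increase could be called. Of all tested bins in introns, 5.54% were called higher in that comparison. With LPS, 1 of the 10 was called higher, where 3.92% of all bins in introns were. The log2 fold change was above 0 for 8 and 9 of the 10 bins, with medians of 1.41 and 1.33. Over the 6947 bins in introns of all genes, 68.4% and 63.5% were above 0 and the medians were 0.33 and 0.30. Together, bins in introns held 4.53% ± 0.13 (SD, n = 3) of the Ikbkb bin counts with control siRNA and 9.03% ± 0.81 (n = 3) with SF3a1 siRNA. With LPS they held 3.53% ± 0.21 (n = 2) and 8.71% ± 0.88 (n = 3). The lowest SF3a1 siRNA library (7.69%) was above the highest control library (4.63%). Per 1000000 bin counts of a library, bins in introns of Ikbkb had 5.30, 4.92 and 4.81 counts with control siRNA and 5.65, 5.35 and 6.72 with SF3a1 siRNA. With LPS they had 3.51 and 4.63 against 4.14, 4.84 and 6.07, where the groups overlapped.

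Intron 15 held the bin that was called both without and with LPS. Bin 16, which is the first 673 bases of this 1350-base intron as annotated in another transcript (chr8:22668011-22668683), held 0.643%, 0.225% and 0.196% of all Ikbkb bin counts in the control siRNA libraries and 1.97%, 2.05% and 2.13% with SF3a1 siRNA. With LPS it held 0.213% and 0.182% with control siRNA and 2.35%, 1.88% and 2.88% with SF3a1 siRNA. All 6 SF3a1 siRNA libraries were above all 5 control libraries. Relative to the gene, the bin rose by 2.39 (log2) without LPS (adjusted p = 0.000638) and by 3.58 with LPS (adjusted p = 3.45e-05). Per base, it was read at 1.96% of the median Ikbkb exon with control siRNA and at 11.5% with SF3a1 siRNA, and at 1.02% and 12.6% with LPS. The neighbouring exons 15 and 16 changed by 0.14 and −0.13 without LPS and by 0.50 and −0.19 with LPS, none of them called. The call for bin 16 held in both comparisons under each of the 4 alternative fits tried and without each of the 11 libraries in turn. Leaving out 1 of the 2 control siRNA libraries with LPS leaves 1, which is then assumed to vary like the libraries of the other groups.

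Read on from exon 15 in frame, intron 15 meets a stop codon after 29 intron codons, with 526 codons before it. The stretch through that stop codon is shown with the 12 last exon bases first and the stop codon in capitals, because it gives what a transcript that kept this intron would encode.
Ikbkb intron 15 through the stop codon, chr8:22668594-22668695: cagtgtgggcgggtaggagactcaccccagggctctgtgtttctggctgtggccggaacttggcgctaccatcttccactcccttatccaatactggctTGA
The forward primer of the pair the study used for a transcript with this intron lies across the same junction, and the pair is shown with intron bases in capitals.
Forward primer, chr8:22668675-22668703: ctgtggagcagtgtgggcggGTAGGAGAC
Reverse primer, chr8:22668607-22668634: GGATAAGGGAGTGGAAGATGGTAGCGCC
In intron 5 the frame met a stop codon after 10 codons and in intron 21 after 3 codons.

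Reads in intron 5 came nearly all from SF3a1 siRNA libraries. Bin 34, the first 1927 bases of this 8243-base intron, had 0, 0 and 0 counts with control siRNA and 15, 13 and 5 counts with SF3a1 siRNA. With LPS it had 0 and 1 counts with control siRNA and 8, 2 and 2 counts with SF3a1 siRNA. Without LPS its share of the gene was at least 27.4-fold higher if the control siRNA group is set to 3 counts in all (adjusted p = 1.34e-06), and with LPS the increase of 3.61 (log2) was not called (adjusted p = 0.416). That value rests on the control libraries, since it was 2.02 without replicate 1 and 6.01 without replicate 2 of control siRNA with LPS. Without replicate 1 or 2 of SF3a1 siRNA the bin had too few counts to be tested, so it entered the test only through the group where it was high. Only an increase could then be called without LPS, and the adjusted p adds no support beyond the counts themselves. These are few reads, since even with SF3a1 siRNA the bin was read at 1.23% of the median exon per base.

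Intron 21 lies before the last exon of the reference transcript. Bin 7, its first 739 bases of 942, held 0.219%, 0.515% and 0.717% of all Ikbkb bin counts in the control siRNA libraries and 1.89%, 1.17% and 1.70% with SF3a1 siRNA. With LPS it held 0.180% and 0.454% against 0.975%, 1.15% and 1.595%. The groups did not overlap in either condition. The increase without LPS was called (1.81, adjusted p = 0.0780), but it lost the call without any 1 of 7 of the 11 libraries (each of the 6 libraries compared and replicate 3 of SF3a1 siRNA with LPS, adjusted p up to 0.807). With LPS it was 2.09 (adjusted p = 0.158), and it was called there with the replicate number as a block (1.91, adjusted p = 0.0767, and 0.0441 to 0.190 over 4 alternatives). The remaining 203 bases of the intron, next to the last exon, were at 0.619% without and 0.733% with SF3a1 siRNA and were not called (0.21, adjusted p = 1.0). With LPS they were at 0.639% and 0.817% against 1.52%, 1.23% and 0.721%, where the groups overlapped. That change of 0.68 (log2) was not called either.

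Other Ikbkb introns annotated as retained were not called. Bin 12, the whole of the 175-base intron 18, had log2 changes of 1.6 without LPS and 1.80 with LPS, from 19 and 11 control counts over the groups, and was not called. Bin 20, the whole of intron 13, changed by −0.22 and 0.40, and bin 23, the whole of intron 12, by −0.74 and 0.26, all with an adjusted p of 1.0. Per base, bin 23 was read at 2.47% of the median exon with control siRNA and at 1.499% with SF3a1 siRNA, where bin 16 in intron 15 was at 1.96% and 11.5%. Bin 42, in intron 2, had too few counts to be tested. Bin 28, in intron 8, was singled out after its values were seen, since it lay just outside the threshold with LPS (2.46, adjusted p = 0.106) and passed it without LPS with the replicate block (1.90, adjusted p = 0.0591).
The junctions of introns with no call are shown for comparison, again with exon bases in capitals.
Ikbkb exon 18-intron 18: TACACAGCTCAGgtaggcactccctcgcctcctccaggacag
Ikbkb exon 13-intron 13: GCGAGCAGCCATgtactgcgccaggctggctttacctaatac
Ikbkb exon 12-intron 12: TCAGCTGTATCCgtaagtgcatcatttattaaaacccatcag
All 6 of the junctions shown open with gt.

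**Figure D2:**
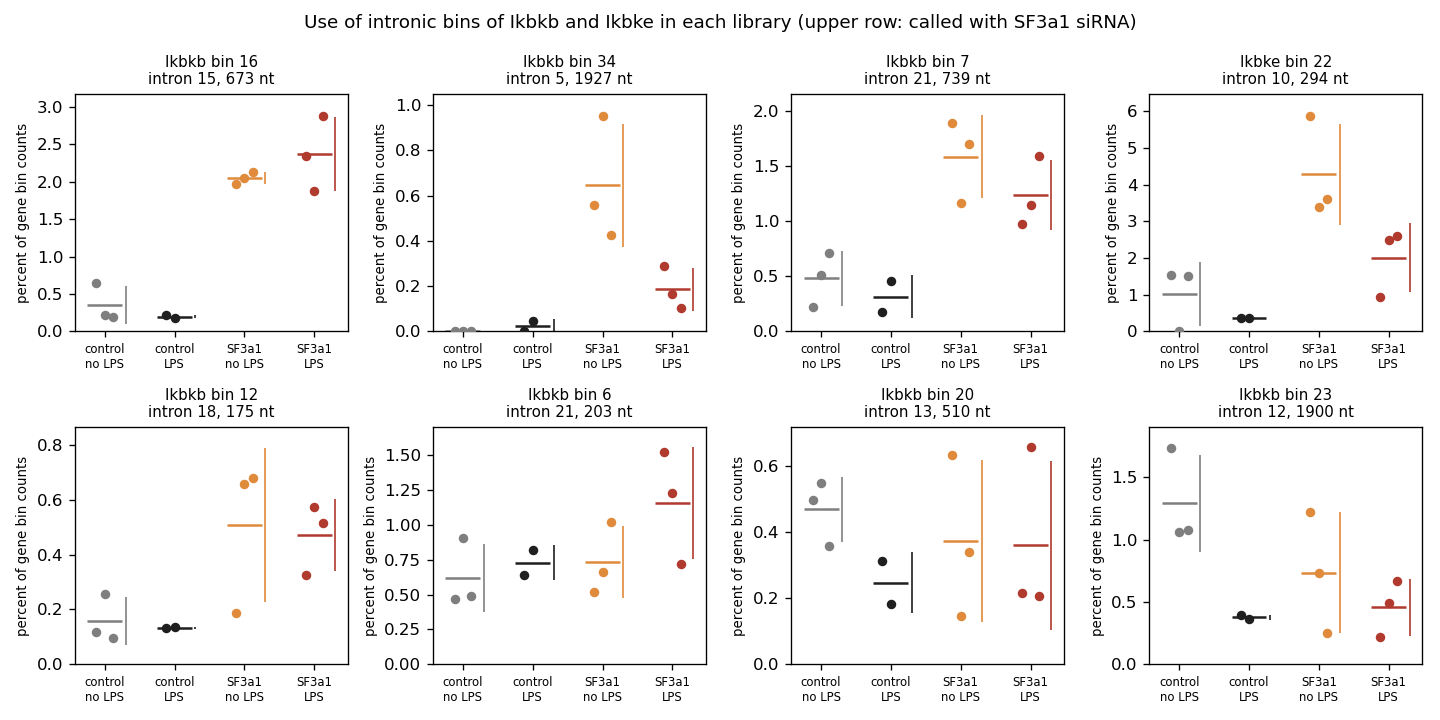
Share of the gene's bin counts (percent) in 8 bins that lie in introns, 1 panel a bin. Points are libraries (2 for control siRNA with LPS, 3 for the others), horizontal lines are means and vertical lines ± 1 SD; in the upper row the SF3a1 siRNA libraries lie above the controls of their LPS condition, and in the lower row bins 12, 6, 20 and 23 of Ikbkb, in introns 18, 21, 13 and 12, were not called.

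**Figure D3:**
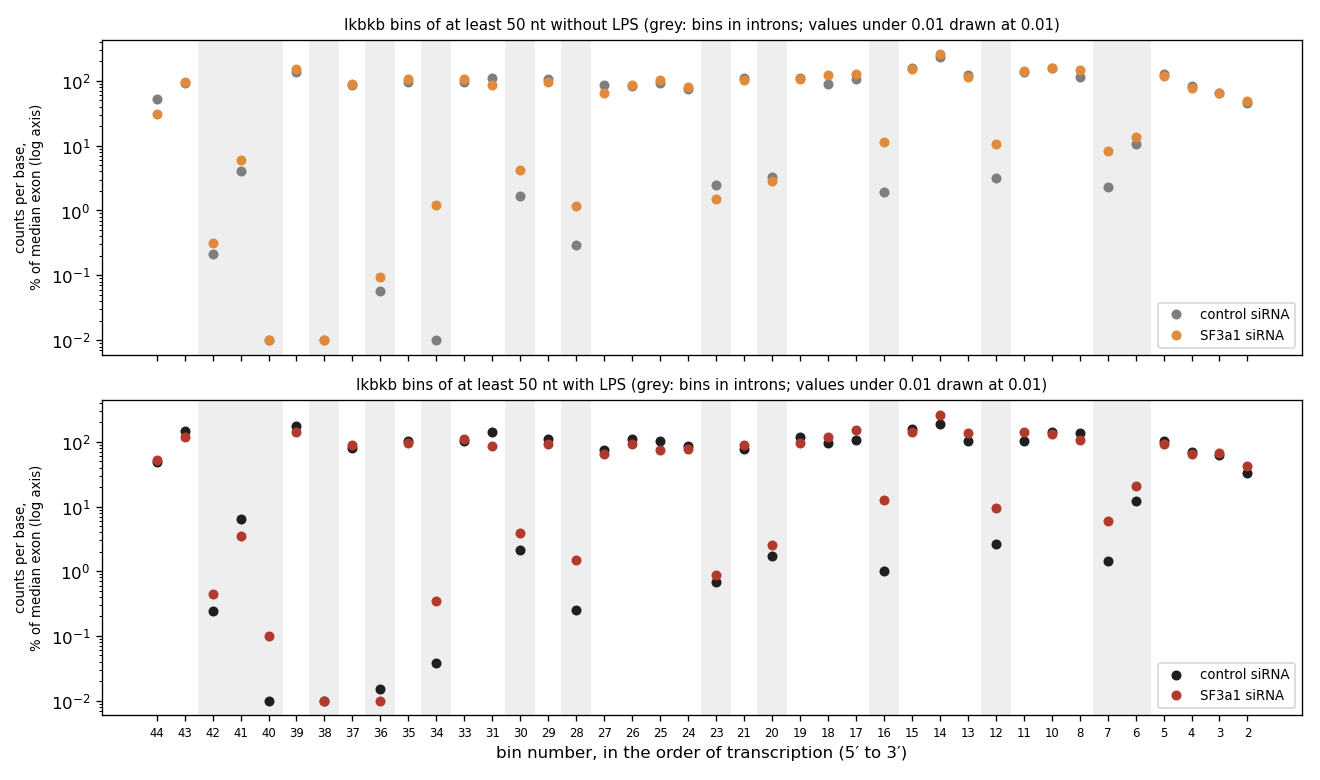
Counts per base of each Ikbkb bin of at least 50 bases as a percent of the gene's median exon (log axis), in the order of transcription, for the mean of each group without LPS (upper) and with LPS (lower). Exons lie near 100% in all groups, and in the grey columns, which are bins in introns, bins 34, 28, 16, 12 and 7 are among those that lie higher with SF3a1 siRNA.

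The share of reads that fell in no annotated feature moved with the knockdown in part. It was 17.8% to 19.8% in the control siRNA libraries and 18.2% to 27.2% in the SF3a1 siRNA libraries, highest in replicate 1 of SF3a1 siRNA, and its part in the intron counts was not tested. The increase of Ikbkb bin 16 without 1 library at a time stayed between 2.14 and 3.25 (log2, the highest without replicate 1 of control siRNA) without LPS and between 3.40 and 3.71 with LPS.

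Chuk encodes IKKα, the second kinase of the complex, which also serves the noncanonical NF-κB pathway. It was at 46.8, 53.3 and 56.9 CPM with control siRNA, at 50.4, 53.8 and 64.7 CPM with control siRNA and LPS, and at 49.7, 47.6 and 52.8 CPM with SF3a1 siRNA. With SF3a1 siRNA and LPS it was at 41.0, 46.7 and 54.7 CPM. All groups overlapped, and no comparison was called. The largest of the 4 changes, with SF3a1 siRNA under LPS, was −0.25 ± 0.15 (adjusted p = 0.248), and with the replicate block it was called (−0.25, adjusted p = 0.0878, and 0.0878 to 0.560 over 6 alternatives). None of its 3 tested bins in introns was called. All 10 of its bins in introns together held 3.41% ± 0.38 (n = 3) of its bin counts with control siRNA and 2.58% ± 0.38 (n = 3) with SF3a1 siRNA, with no overlap. With LPS they held 1.77% ± 0.65 (n = 2) and 2.28% ± 0.40 (n = 3), where the groups overlapped.

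Ikbkg encodes NEMO, the regulatory subunit that ties both kinases to ubiquitin chains. It was at 62.3, 79.5 and 64.7 CPM with control siRNA and at 138, 111 and 132 CPM with SF3a1 siRNA, with no overlap. With LPS it was at 89.4, 97.4 and 86.1 CPM with control siRNA and at 142, 103 and 125 CPM with SF3a1 siRNA, again with no overlap. The increase with SF3a1 siRNA was 1.84-fold without LPS (0.88 ± 0.16, adjusted p = 0.00133) and 1.36-fold with LPS (0.44 ± 0.16, adjusted p = 0.0477). LPS with control siRNA raised it 1.32-fold (0.40 ± 0.16, adjusted p = 0.0791), and LPS with SF3a1 siRNA did not change it past the threshold (−0.04 ± 0.16). The increase with LPS lost its call without any 1 of 6 of the 12 libraries (all 3 of control siRNA with LPS, replicates 1 and 3 of control siRNA, replicate 3 of SF3a1 siRNA, adjusted p up to 0.203) and with library totals or with no filter on low counts (0.0486 to 0.318 over 6 alternatives). The increase with SF3a1 siRNA under LPS lost it without 1 of 3 libraries (replicates 1 and 3 of SF3a1 siRNA with LPS, replicate 3 of control siRNA with LPS, adjusted p up to 0.169) and with no filter on low counts (0.0275 to 0.105 over 6 alternatives). Within the complex, SF3a1 siRNA thus lowered Ikbkb and raised Ikbkg, both without and with LPS.

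Ikbkg shares 418 exonic bases on the opposite strand with G6pdx, an enzyme gene of the pentose phosphate pathway, and the strand setting of the counting is not given in the sources used here, so reads of that stretch cannot be told apart. The 4 bins shared by both genes held 1.31% to 3.74% of the Ikbkg bin counts per library. G6pdx fell with SF3a1 siRNA (−0.81 ± 0.15 without LPS, adjusted p = 0.00200; −0.81 ± 0.15 with LPS, adjusted p = 0.00173). The 11 tested Ikbkg bins in introns had no call, and all its bins in introns held 5.41% ± 0.66 (n = 3) of bin counts with control siRNA and 5.01% ± 0.13 (n = 3) with SF3a1 siRNA. With LPS they held 6.07% ± 0.96 (n = 2) and 5.21% ± 0.44 (n = 3).

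Ikbke encodes IKKε, the inducible kinase of the interferon arm, and lies at chr1:131254343-131279606 on the minus strand. It was the gene of the 9 that LPS moved furthest. It was at 14.1, 12.4 and 10.3 CPM with control siRNA and at 236, 257 and 332 CPM with LPS, a 22.4-fold increase (4.48 ± 0.28, adjusted p = 2.01e-07). With SF3a1 siRNA it was at 8.42, 5.80 and 8.11 CPM and, with LPS, at 46.1, 70.7 and 95.7 CPM, a 9.49-fold increase (3.25 ± 0.27, adjusted p = 8.60e-06). No library of SF3a1 siRNA with LPS reached the lowest of control siRNA with LPS, at a 3.89-fold lower level (−1.96 ± 0.25, adjusted p = 0.000148). Without LPS it was 1.65-fold lower with SF3a1 siRNA (−0.72 ± 0.26, adjusted p = 0.0575), and that call was lost without any 1 of 4 libraries (replicates 1 and 2 of control siRNA, replicates 2 and 3 of SF3a1 siRNA, adjusted p up to 0.235). The interaction was −1.24 ± 0.36 and was not called (adjusted p = 0.113), and it was called with the replicate block (−1.24, adjusted p = 0.0345, and 0.00369 to 0.130 over 5 alternatives). Ikbke shares 65 and 159 exonic bases on the opposite strand with the genes Gm28913 and Gm28914, and reads of those stretches cannot be told apart without a stated strand setting.

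Reads in introns were a larger share of Ikbke with SF3a1 siRNA, although not more of the library under LPS. Per 1000000 bin counts of a library (the total over all genes), its bins in introns had 8.68 and 11.8 counts with control siRNA and LPS and 3.29, 6.39 and 8.33 with SF3a1 siRNA and LPS, all lower. Without LPS they had 0.931, 0.579 and 0.474 against 0.865, 1.04 and 0.753, where the groups overlapped. Bin 22, the last 294 bases of the 636-base intron 10 (chr1:131270251-131270544), is shown at its end with the exon in capitals, because the bin ends at this junction.
Ikbke intron 10-exon 11, chr1:131270239-131270290: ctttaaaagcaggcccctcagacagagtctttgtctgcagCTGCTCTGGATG
The 17 intron bases that lie before the last 3 hold 9 pyrimidines. At the corresponding ends of Ikbkb introns 12, 13, 18 and 21 they are 11, 13, 13 and 11. The bin held 0.357% and 0.371% of Ikbke bin counts with control siRNA and LPS and 0.937%, 2.50% and 2.60% with SF3a1 siRNA and LPS. These groups did not overlap, and the increase was 2.58 (log2, adjusted p = 0.0337). It lost its call without 1 of 4 libraries (replicates 2 and 3 of SF3a1 siRNA with LPS, replicates 1 and 2 of control siRNA with LPS, adjusted p up to 0.858), with the same assumption where 1 control library was left. Without LPS the shares were 1.54%, 0% and 1.497% against 5.86%, 3.38% and 3.59%, from 21 and 30 counts in all, and the increase of 1.96 was not called (adjusted p = 0.372). The 9 tested Ikbke bins in introns were all above 0 in both SF3a1 siRNA comparisons, with medians of 1.06 without LPS and 0.89 with LPS. Of such bins in all genes, 68.4% without and 63.5% with LPS were above 0. Bin 22 under LPS was the 1 of the 9 called, where 3.92% of all tested bins in introns were called higher.

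Bins in introns held 4.50% ± 0.70 (n = 3) of Ikbke bin counts with control siRNA and 11.5% ± 4.3 (n = 3) with SF3a1 siRNA. With LPS they held 4.03% ± 0.66 (n = 2) and 8.65% ± 0.97 (n = 3). As for Ikbkb, every SF3a1 siRNA library was above every control library. Over all genes with such bins, the median share was 1.12% with control siRNA and 1.46% with SF3a1 siRNA, and 1.15% and 1.45% with LPS. In exact two-sided permutation tests of the share over libraries, added after the data were seen for the 4 genes with 3 or more such bins tested and both LPS conditions (8 tests), p was 0.1 without LPS for Ikbkb, Ikbke and Chuk (lower in Chuk), the smallest that 3 against 3 libraries allow, and 0.267 after Benjamini-Hochberg adjustment. With LPS it was 0.2 for Ikbkb and Ikbke, the smallest that 3 against 2 libraries allow, and 0.32 after adjustment. For Chuk with LPS it was 0.4, and for Ikbkg it was 0.4 without and 0.6 with LPS. With these smallest possible values none of the 8 tests could have reached an adjusted p of 0.1, so no conclusion is drawn from them.

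**Figure D4:**
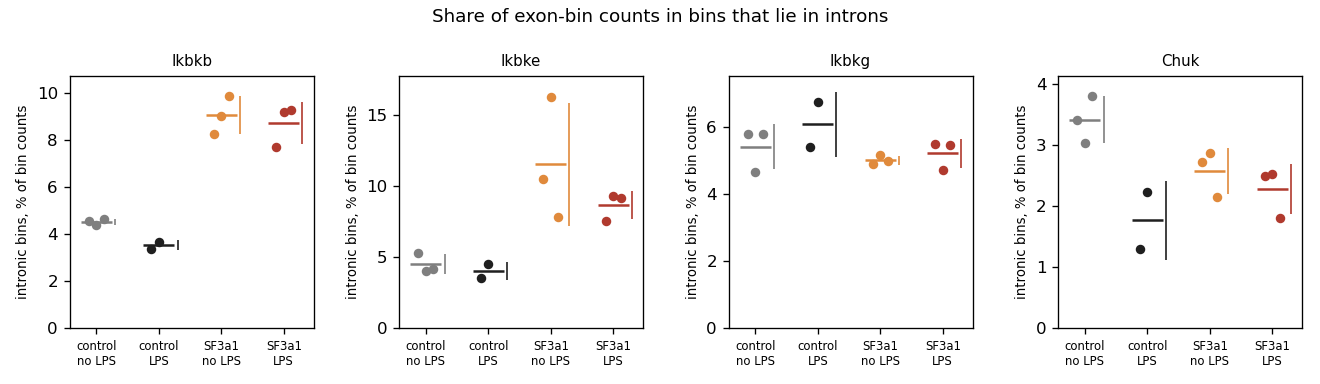
Share of a gene's bin counts (percent) that fell in bins lying in introns, for the 4 genes with at least 3 such bins tested. Points are libraries, horizontal lines are means and vertical lines ± 1 SD (n = 3, or 2 for control siRNA with LPS); for Ikbkb and Ikbke the SF3a1 siRNA libraries lie above all control libraries, and for Ikbkg and Chuk they do not.

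Tbk1, the constitutive partner of IKKε, was at 54.7, 62.9 and 67.6 CPM with control siRNA and at 95.2, 94.9 and 115 CPM with LPS. With SF3a1 siRNA it was at 69.9, 72.1 and 75.3 CPM and, with LPS, at 85.2, 68.0 and 79.8 CPM. LPS raised it with control siRNA 1.65-fold with no overlap (0.72 ± 0.14, adjusted p = 0.00194), and with SF3a1 siRNA the groups overlapped (0.10 ± 0.14, adjusted p = 0.810). SF3a1 siRNA libraries were all above the controls without LPS (0.23 ± 0.14, not called, adjusted p = 0.257) and all below them with LPS (−0.39 ± 0.14, adjusted p = 0.0514). The decrease with LPS lost its call without replicate 2 of SF3a1 siRNA with LPS or replicate 3 of control siRNA with LPS (adjusted p up to 0.185), and with only the groups compared in the fit or with no filter on low counts (0.0190 to 0.214 over 6 alternatives). The interaction was −0.62 ± 0.20 and was not called (adjusted p = 0.151), and it was called with the replicate block (−0.62, adjusted p = 0.0433, and 0.0345 to 0.444 over 5 alternatives). Its 21 bins all lie in exons, and none was called in any comparison.

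Map3k7 encodes TAK1, the kinase above IKKβ and above the MAP kinase kinases. It was at 106, 97.5 and 93.4 CPM with control siRNA and at 139, 162 and 157 CPM with SF3a1 siRNA, a 1.54-fold increase with no overlap (0.62 ± 0.14, adjusted p = 0.00480). With LPS it was at 78.4, 94.1 and 90.3 CPM and at 116, 109 and 138 CPM, a 1.38-fold increase with no overlap (0.46 ± 0.14, adjusted p = 0.0211). Both increases remained called without each of the 12 libraries in turn. LPS changed it by −0.18 ± 0.14 with control siRNA (adjusted p = 0.404, called with library totals in place of TMM at −0.36, adjusted p = 0.0773, and 0.0773 to 0.632 over 6 alternatives) and by −0.34 ± 0.14 with SF3a1 siRNA (adjusted p = 0.186), and the latter was called with the replicate block (−0.34, adjusted p = 0.0880, and 0.0642 to 0.565 over 6 alternatives).

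The Map3k7 exon of 81 bases that other transcripts skip, at chr4:31994874-31994954, is a whole number of 27 codons and is shown because its use measures the split between the long and short TAK1 forms.
Map3k7 81-base exon: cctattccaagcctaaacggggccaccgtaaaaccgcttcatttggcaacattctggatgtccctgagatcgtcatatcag
It held 3.23% and 2.81% of Map3k7 bin counts with control and SF3a1 siRNA and 4.33% and 2.87% with LPS, and none of these comparisons was called (−0.22 without LPS, −0.60 with LPS, both with an adjusted p of 1.0). The 116-base exon 15, also skipped in other transcripts, held 2.08% and 2.81% and, with LPS, 2.31% and 2.67%, and was not called. Another skipped exon had 0 counts in the other groups and 8 counts in SF3a1 siRNA with LPS, too few to be tested.

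Of the TAB adaptors, Tab2 and Tab1 passed the test with LPS, and none passed it with SF3a1 siRNA. Tab2, which links TAK1 to ubiquitin chains, was at 137, 136 and 130.3 CPM with control siRNA and at 218, 223 and 237 CPM with LPS, a 1.68-fold increase with no overlap (0.75 ± 0.14, adjusted p = 0.0015). With SF3a1 siRNA it was at 171, 161 and 155 CPM and, with LPS, at 272, 200.3 and 284 CPM, a 1.55-fold increase with no overlap (0.63 ± 0.14, adjusted p = 0.0141). Tab2 was thus the member besides Ikbke that LPS raised under both siRNAs. SF3a1 siRNA changed it by 0.28 ± 0.14 without LPS (adjusted p = 0.173), called with the replicate block (0.27, adjusted p = 0.0979, and 0.0560 to 0.535 over 6 alternatives), and by 0.16 ± 0.14 with LPS.

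Tab1, which activates TAK1 by binding it, was at 84.0, 64.1 and 59.3 CPM with control siRNA and at 45.9, 54.4 and 45.5 CPM with LPS. It was the member that fell with LPS (1.42-fold lower, −0.51 ± 0.20, adjusted p = 0.0764), with no overlap. The call was lost without any 1 of 5 libraries (replicates 1 and 3 of control siRNA with LPS, replicates 1 and 2 of control siRNA, replicate 3 of SF3a1 siRNA, adjusted p up to 0.308) and with DESeq2, another size factor (RLE) or only the groups compared in the fit (0.0105 to 0.115 over 6 alternatives). Tab3, a relative of TAB2, was at 12.2, 13.6 and 14.7 CPM with control siRNA and at 10.6, 8.19 and 10.5 CPM with LPS. Those groups did not overlap either, but the decrease was not called (−0.46 ± 0.23, adjusted p = 0.166), and it was with the replicate block (−0.46, adjusted p = 0.0883, and 0.0474 to 0.303 over 6 alternatives). SF3a1 siRNA changed neither gene past the threshold, with log2 changes between −0.15 and 0.28.

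**Figure D5:**
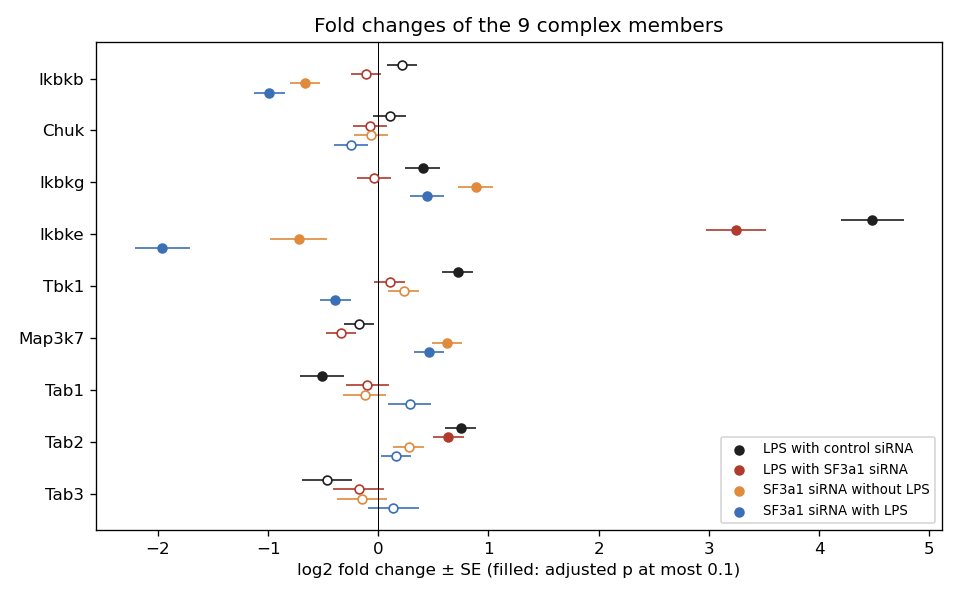
Log2 fold change of the 9 genes in 4 comparisons, with horizontal bars of ± 1 SE from the edgeR fit. Filled points had an adjusted p of at most 0.1; Ikbke lies at 4.48 and 3.25 with LPS, and Ikbkb lies below 0 and Ikbkg and Map3k7 above 0 in both SF3a1 siRNA comparisons.

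Over all 9 genes, 212 of 272 exon bins were tested. With LPS in control siRNA or in SF3a1 siRNA cells, 0 were called in edgeR diffSpliceDGE (4 and 2 at an unadjusted p under 0.05, and 0 with the replicate block), where 0.0801% and 0.0254% of all bins were called (0.0514% and 0.0208% of all bins higher, and 0.0144% of bins in introns higher in each). With SF3a1 siRNA, 3 were called without LPS and 2 with LPS, all in introns and all higher. Of all bins, 0.626% and 0.492% were called (0.497% and 0.381% higher), and of all tested bins in introns 5.54% and 3.92% were called higher. The 3 include Ikbkb bin 34, which was tested only through its counts in SF3a1 siRNA without LPS. Among the 34 tested bins in introns, 26 (76.5%) had a log2 change above 0 without LPS and 25 (73.5%) with LPS, against 68.4% and 63.5% of the tested bins in introns of all genes.

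Levels can be set against each other per length. Divided by the length of all exon bins, in CPM per kb with control siRNA, Tab1 (23.3 ± 4.43), Tab2 (21.9 ± 0.559) and Tbk1 (20.4 ± 2.16) were the highest and did not differ from each other beyond their spread. Map3k7 (15.4 ± 1.01), Chuk (10.3 ± 1.005), Ikbkg (8.49 ± 1.15), Ikbkb (4.88 ± 0.314), Tab3 (2.03 ± 0.190) and Ikbke (1.36 ± 0.214) followed, all as mean ± SD with n = 3, and Chuk and Ikbkg lay within 2 SD of each other. The place of Ikbkb depends on the length used, because its bins include long introns annotated as retained. Per kb of its longest coding transcript, a choice added after the data were seen, Ikbkb was at 23.4 ± 1.51, below Tab2 (30.7 ± 0.783) and not apart from Tab1 (23.3 ± 4.43) and Tbk1 (20.4 ± 2.16) beyond their spread. The place of Ikbke depends on it too. Per kb of exon bins it was at 30.5 ± 5.64 with LPS and control siRNA, beside Tab2 at 36.8 ± 1.56 and Tbk1 at 33.7 ± 3.88. Per kb of the longest coding transcript it was at 3.77 ± 0.595 without LPS, above Tab3 (2.12 ± 0.199), and with LPS at 84.6 ± 15.6, the highest of the 9 genes, with Tab2 next at 51.6 ± 2.18.

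The genes that followed Ikbkb most closely over the 12 libraries, by Pearson r of log2 CPM among 9304 genes, were Ddx3y (0.992), Vamp2 (0.978) and Srp72 (0.977). For Ikbke they were Ifit2 (0.993), Cxcl10 (0.993) and Mndal (0.989). The libraries of these correlations fall into 4 groups, so the values describe the group pattern.

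The rest of the pathway was followed through 57 genes in 7 lists, 56 of which were tested. With control siRNA, LPS raised 26 of them and lowered 5, where 13.8% of all genes were called higher and 18.3% lower. LPS with SF3a1 siRNA raised 17 and lowered 1 (6.6% and 4.06% of all genes). SF3a1 siRNA raised 11 and lowered 6 without LPS (13.7% and 20.1% of all genes), and raised 10 and lowered 15 with LPS (18.4% and 20.4%). For the interaction 0 were called above 0 and 3 below it (1.54% and 1.94%). With the replicate block no pathway gene lost a call, and the called genes numbered 37, 28, 29, 30 and 14 in the same order, where 43.9%, 20.8%, 47.1%, 50.9% and 11.7% of all genes were called. The count rose by over 1.5 times for LPS with SF3a1 siRNA (24 up, 4 down), for SF3a1 siRNA without LPS (20 up, 9 down) and for the interaction (2 above 0, 12 below). The median log2 fold changes over the lists were 0.34, 0.24, 0.18 and −0.07.

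The substrates of the IKKs had the highest list median with LPS. Of 11, 9 rose and 0 fell with control siRNA, with a median of 2.26, and 9 rose and 0 fell with SF3a1 siRNA, with a median of 1.49. Irf7, the interferon transcription factor that IKKε and TBK1 phosphorylate, rose from 27.9 ± 9.94 to 1179 ± 495 CPM with control siRNA (5.41, adjusted p = 5.10e-06) and from 25.2 ± 5.67 to 217 ± 138 CPM with SF3a1 siRNA (3.11, adjusted p = 0.000713). Nfkbie and Nfkbia, which encode IκB proteins that hold NF-κB in the cytoplasm, rose by 2.80 and 2.70 with control siRNA. With SF3a1 siRNA and LPS, 0 of the 11 rose and 4 fell. These were Irf7 (−2.44), Map3k8 (−1.22), the kinase Tpl2 that sits on the p105 precursor, Irf3 (−0.55) and Nfkb1 (−0.40). With the replicate block 1 rose there, Nfkbie (0.48, adjusted p = 0.0242). Without LPS, Nfkbia (1.07), Nfkbie (1.17) and Nfkbib (0.42) rose with SF3a1 siRNA and Irf3 (−0.58) fell, and with the replicate block Nfkb2 rose as well (0.40, adjusted p = 0.0330).

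Above the complexes, 6 of 14 adaptors, kinases and ubiquitin ligases rose and 1 fell with LPS under control siRNA, led by Irak2 (2.18), Ticam1 (1.57) and Birc3 (1.55). With the replicate block 3 fell, since Irak1 (−0.28, adjusted p = 0.0891) and Map3k14 (−0.31, adjusted p = 0.0945) were called too. With SF3a1 siRNA and LPS, 4 rose and 4 fell, and with the block 6 fell, with Myd88 (−0.30, adjusted p = 0.0514) and Ticam1 (−0.45, adjusted p = 0.0406) added. Map3k14, the NIK kinase that activates IKKα, rose by 1.34 (36.0 ± 5.85 to 91.4 ± 11.3 CPM, adjusted p = 6.97e-05), and the ubiquitin ligases Birc2 (−0.88) and Birc3 (−0.78) fell. The same 2 changes of Map3k14 (0.60) and Birc2 (−0.83) were called without LPS, where 4 rose and 2 fell, and with the block Traf3 (0.40, adjusted p = 0.0358) and Ticam1 (0.39, adjusted p = 0.0805) rose as well. LPS with SF3a1 siRNA raised 4 and lowered 1, and with the block it raised 6 and lowered 2. Added there were Ticam1 (0.70, adjusted p = 0.0117), Map3k14 (0.44, adjusted p = 0.0482) and Irak1 (−0.32, adjusted p = 0.0993).

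Of the 9 genes for the linear ubiquitin ligase and for the enzymes and adaptors that remove or bind such chains, 5 rose and 0 fell with LPS under control siRNA, led by Tnfaip3 (3.99), the A20 feedback inhibitor, and Tnip1 (2.36). With SF3a1 siRNA and LPS 0 rose and 5 fell: all 3 subunits of the ligase, Rnf31 (−0.92), Rbck1 (−0.81) and Sharpin (−0.61), with Tnfaip3 (−0.68) and Otulin (−0.57). Without LPS, Rbck1 (−0.51), Sharpin (−0.42) and Otulin (−0.66) fell and Tnip1 (0.66) rose, and with the replicate block Rnf31 fell (−0.54, adjusted p = 0.0310) and Tnip2 rose (0.36, adjusted p = 0.0760) as well. LPS with SF3a1 siRNA raised 3 and lowered 0, and with the block it raised 4 and lowered 1. Added there were Rnf31 (0.48, adjusted p = 0.0996) and Rbck1 (−0.33, adjusted p = 0.0568).

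The remaining lists were small. Of 5 tested adaptors of TBK1 and IKKε, Azi2 (1.23) and Tank (0.59) rose with LPS under control siRNA, and Azi2 (−0.76) was lower with SF3a1 siRNA and LPS. Of 5 partners of the IKK complex, Cdc37 (0.51), a chaperone partner of kinases, and Hsp90ab1 (0.45) rose and Ikbip (−1.06) and Erc1 (−0.59) fell with LPS under control siRNA. Ikbip was higher with SF3a1 siRNA and LPS (0.87). Of 8 kinases below TAK1, 1 rose and 2 fell with LPS under control siRNA, namely Map2k4 (0.43), Map2k6 (−2.27) and Mapk9 (−0.37). With SF3a1 siRNA 2 rose and 0 fell without LPS, Map2k3 (1.03), which activates p38, and Map2k4 (0.58). With SF3a1 siRNA and LPS 3 rose, Map2k3 (1.16, from 371 ± 128 to 830 ± 257 CPM), Mapk8 (0.33) and Mapk9 (0.28), and Nlk (−0.55) fell. With the replicate block 2 rose and 2 fell without LPS (Map2k6 and Nlk added), and 5 rose and 1 fell with LPS (Map2k7 and Mapk14 added). LPS with SF3a1 siRNA raised 1 of these kinases and lowered 0, and with the block it raised 1 and lowered 1. Of 4 phosphatases of TAK1, Ppm1l was higher with SF3a1 siRNA without LPS (0.996) and with LPS (0.61), and Ppm1a with LPS (0.47), and Ppm1l rose with LPS under control siRNA (0.51). With the block the adaptors of TBK1 and IKKε gained Tbkbp1 with LPS under control siRNA and Tbkbp1 and Tank with SF3a1 siRNA without LPS, all higher. The partners gained Hsp90aa1 with LPS under control siRNA and Hsp90ab1 with SF3a1 siRNA without LPS, both higher. For LPS with SF3a1 siRNA, where none of these 10 genes was called without the block, Azi2 (0.42, adjusted p = 0.0171), Cdc37 (0.36, adjusted p = 0.0591), Hsp90aa1 (0.58, adjusted p = 0.00731) and Hsp90ab1 (0.32, adjusted p = 0.0608) rose with it. The phosphatases gained Ppm1b and Ppm1a, both lower, with LPS, and Ppp6c and Ppm1a, both higher, with SF3a1 siRNA.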

How the data were processed

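Per the labels and the study's methods, polyA RNA of 12 libraries was sequenced on an Ion Proton, and the authors mapped reads of at least 30 bases to mm10 with GSNAP and deposited uniquely mapped read counts per gene from HTSeq and counts per exon bin. No read strand setting is given in the sources used here. Members and lists were chosen with earlier results of these data known. Named items were the 9 members, every member bin called in at least 1 comparison, every Ikbkb bin in an annotated retained intron, whole internal exons that another transcript skips, Sf3a1, Tnf, Il6 and up to 3 called pathway genes a list and comparison with the largest log2 fold change, others being singled out after their values were seen.

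Gene counts of the 12 libraries were fitted without a block in edgeR 4.0.16 (filterByExpr, TMM, quasi-likelihood test), and bins in diffSpliceDGE, in R 4.3.3, called at an adjusted p of at most 0.1. Rows that named no gene (17.8% to 27.2% of a library's reads for no feature) were left out of library sizes. Bins were placed on mm10 from GENCODE release M21, which rebuilt 61.6% of all bins and all 272 of the members. A read can be counted in several bins, so neighbouring bins share reads. Sequences came from the GENCODE transcripts and primers from the study's tables. DESeq2 1.42.0 and limma 3.58.1 were alternatives. The code was tested on simulated data, where the gene fit missed most of the fold changes put in. Far fewer genes were changed there than were called in the data, so that share of misses does not carry over. A missing call does not by itself show that a gene did not change. False bin calls in the simulation fell mostly on unchanged bins, called lower, of genes with a raised bin, but also in genes with no changed bin.

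Replicate numbers of the labels paired the libraries: same-numbered libraries of different groups deviated together in 18 of 18 pairs (r of the deviations 0.143 to 0.600), while the 24 pairs of number 1 with 2 or 3 were at −0.523 to −0.169 and the 12 pairs of numbers 2 and 3 at 0.0401 to 0.345, with 10 above 0.1, so that the numbers mostly set replicate 1 apart. Values with the number as a block are given for members and bins where they changed a call. For pathway genes, an addition after the data were seen, they are given as counts. Pathway genes that gained a call are named, except 1 kinase below TAK1 that fell for LPS with SF3a1 siRNA.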

Additional observations from a re-analysis of the deposited data

Results flagged for a closer look

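For 16 genes the effect of SF3a1 siRNA with LPS differed from that without LPS, by the interaction term of the edgeR fit without or with a replicate block. The interaction was looked at by both fits for the 9 members and 56 pathway genes, and 3.47% of all genes had a called interaction without the block and 11.7% with it. Ikbke had a difference of −1.24 (log2), called with the block (adjusted p = 0.0345) and not without it (adjusted p = 0.113). Tbk1 had −0.62, called with the block (adjusted p = 0.0433) and not without it (adjusted p = 0.151). Over the 5 alternative fits, the block among them, Ikbke was called in 3 and Tbk1 in 2, so the block was not the only fit that called them.

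Of the pathway genes, 3 were called by both fits. Nfkbia had −1.21 (adjusted p = 0.0348, and 0.0101 with the block). It was higher with SF3a1 siRNA without LPS (190.0 against 90.7 CPM) and at 534 against 590 CPM with LPS. Irf7 had −2.30 (adjusted p = 0.0743, and 0.0186 with the block) and Irak2, a kinase near the receptor, −0.85 (adjusted p = 0.0971, and 0.0185 with the block).

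The other 11 were called with the block and not without it. Below 0 were the adaptors Myd88 (−0.77), Ticam1 (−0.86) and Azi2 (−0.80), the ubiquitin ligase Birc3 (−0.82), the chain-binding Tnip1 (−0.81), and the substrates Map3k8 (−1.04), Nfkb2 (−0.69), Nfkb1 (−0.57) and Nfkbib (−0.57). Above 0 were the kinases Map3k14 (0.75) and Mapk14 (0.57). These values are from the fit without the block, where their adjusted p was 0.108 to 0.460, and with the block it was 0.00673 to 0.0858.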

How the results depend on the processing

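Of 21 called changes of members and bins, 0 turned direction under any alternative: 214 of 245 values with 1 library left out and 108 of 116 under other alternatives kept the call. Among 44 changes that were not called, 4 became called without at least 1 library and 8 under at least 1 other alternative.

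Library totals in place of TMM shifted the median of all genes by −0.19 for LPS with control siRNA and −0.13 for LPS with SF3a1 siRNA. The share of called genes that were higher went from 42.9% to 27.6% and from 61.9% to 40.1%. With that scaling Chuk turned to −0.0813 for LPS with control siRNA and Tbk1 to −0.0323 for LPS with SF3a1 siRNA, and with limma Ikbkb bin 23 to −0.0484 for SF3a1 siRNA with LPS. The causes were not tested.

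With the replicate block, called genes rose from 1598 to 3115 for LPS with SF3a1 siRNA and from 520 to 1756 for the interaction. Called bins rose from 123 to 285 for LPS with control siRNA, from 961 to 2113 and from 756 to 1793 for SF3a1 siRNA without and with LPS, from 39 to 105 for LPS with SF3a1 siRNA and from 0 to 2 for the interaction, and 2 members had a called interaction. The block changed no other member call than those given above. The interaction had 966 called genes (2 members) in DESeq2 and 930 (1 member) with no filter on low counts, which left 3 members called for SF3a1 siRNA with LPS. With limma, 21 bins were called for LPS with SF3a1 siRNA and 1 for the interaction.

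Without 1 library, called genes ranged from 3985 to 5023 and from 1050 to 2005 for LPS with control and SF3a1 siRNA, from 3881 to 5627 and from 4744 to 5993 for SF3a1 siRNA without and with LPS, and from 273 to 711 for the interaction. Called bins ranged from 49 to 158, 26 to 42, 527 to 1131, 101 (without replicate 1 of control siRNA with LPS) to 888 and 0 to 3 in the same order. Called members ranged from 3 to 6, 2 to 2, 3 to 5, 3 to 5 and 0 to 1, and called member bins from 1 to 3 in both SF3a1 siRNA comparisons.

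Values whose sign changed without 1 library were none of them called: for LPS with SF3a1 siRNA Chuk (−0.19 to 0.0185), Ikbkg (−0.15 to 0.0767), Tab1 (−0.31 to 0.0464) and Tab3 (−0.37 to 0.0230); for LPS with control siRNA Chuk (−0.00715 to 0.18); for SF3a1 siRNA without LPS Chuk (−0.10 to 0.0860), Tab1 (−0.24 to 0.14), Tab3 (−0.24 to 0.00402), Ikbkb bin 20 (−0.95 to 0.12) and bin 6 (−0.0730 to 0.57); for SF3a1 siRNA with LPS Tab3 (−0.0500 to 0.34), Ikbkb bin 20 (−0.25 to 0.86), bin 23 (−0.20 to 0.66) and Map3k7 bin 32 (−0.0757 to 0.58); for the interaction Tab2 (−0.21 to 0.0264). Intron bins rest on few counts, which limits what a missing call shows.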
